A study of Mus musculus with 12 samples.

Results

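Nr4a1, Nr4a2, Nr4a3, Egr1, Egr2 and Egr3 encode the orphan nuclear receptors and the zinc finger factors that T cells induce as immediate early genes. They were taken by platform symbol from the 19938 genes with a single symbol on a whole-transcript Affymetrix array, and each of these 6 genes had 1 row. The arrays measured RNA of CD8+CD28low regulatory T cells of C57Bl/6 mice, a CD8 T cell subset with little of the costimulatory receptor CD28 by its label. There were 4 groups of 3 arrays: activated Aire-deficient cells (activated KO), activated wild-type cells (activated WT), native Aire-deficient cells (native KO) and native wild-type cells (native WT). KO mice carry the label AIRE ko, and Aire is the factor that lets thymic epithelium display tissue antigens. Activated cells had spent 96 h in culture together with allogenic antigen-presenting cells and an antibody to CD3, and native cells were freshly isolated. The titles call the arrays biological replicates. The kind of Aire allele, the number of mice behind an array, the way the cells were isolated and any removal of presenting cells before lysis are not stated in the labels. The p-values therefore measure the spread between these arrays, and activation cannot be told apart from 96 h of culture.

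Immediate early genes are transcribed within minutes of a receptor signal, without new protein synthesis, and their messenger RNAs are short-lived. In T cells, antigen receptor signals reach the Nr4a genes mainly through calcium, MEF2 and CREB proteins, Egr1 through ERK and the factors SRF and ELK, and Egr2 and Egr3 also through NFAT. The NR4A receptors act without a known ligand and, like EGR2 and EGR3, are known for restraining T cell responses. Nr4a1 is widely used as a reporter of antigen receptor signalling.

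Promoter windows are shown for the 3 Nr4a genes and for Egr2. Each Nr4a gene was called lower in activated cells by the test below in at least 1 genotype, and Egr2 was not. Egr3, called lower in KO cells, had no window in the RefSeq table, and Egr1 is not shown. The windows therefore do not compare called with uncalled genes. A window runs from 250 bases before to 50 after a start of transcription (RefSeq, GRCm38.p6), is printed 5′ to 3′ on the gene's strand, and has cores of the cAMP response element (CRE) in capitals (TGACG, or CGTCA where it lies on the other strand). The windows are chr15:101266596-101266895 on the + strand for Nr4a1, chr2:57123954-57124253 on the - strand for Nr4a2, chr4:48045055-48045354 on the + strand for Nr4a3 and chr10:67537619-67537918 on the + strand for Egr2.
Nr4a1: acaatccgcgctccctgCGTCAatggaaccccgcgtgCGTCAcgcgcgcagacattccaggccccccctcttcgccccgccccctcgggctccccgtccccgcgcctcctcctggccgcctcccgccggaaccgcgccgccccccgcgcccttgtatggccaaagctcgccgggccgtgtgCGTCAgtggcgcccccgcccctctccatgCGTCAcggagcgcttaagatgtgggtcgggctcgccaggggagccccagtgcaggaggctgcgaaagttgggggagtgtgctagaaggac
Nr4a2: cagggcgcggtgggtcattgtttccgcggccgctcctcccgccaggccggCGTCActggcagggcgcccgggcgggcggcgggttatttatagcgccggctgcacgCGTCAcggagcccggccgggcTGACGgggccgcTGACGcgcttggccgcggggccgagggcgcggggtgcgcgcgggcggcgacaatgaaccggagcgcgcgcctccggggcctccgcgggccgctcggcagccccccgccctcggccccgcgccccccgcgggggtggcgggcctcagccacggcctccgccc
Nr4a3: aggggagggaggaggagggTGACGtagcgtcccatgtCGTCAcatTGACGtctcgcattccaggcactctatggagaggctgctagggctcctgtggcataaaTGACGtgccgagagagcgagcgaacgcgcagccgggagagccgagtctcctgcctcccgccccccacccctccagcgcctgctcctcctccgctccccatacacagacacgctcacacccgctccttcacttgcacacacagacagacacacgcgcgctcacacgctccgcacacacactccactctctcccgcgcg
Egr2: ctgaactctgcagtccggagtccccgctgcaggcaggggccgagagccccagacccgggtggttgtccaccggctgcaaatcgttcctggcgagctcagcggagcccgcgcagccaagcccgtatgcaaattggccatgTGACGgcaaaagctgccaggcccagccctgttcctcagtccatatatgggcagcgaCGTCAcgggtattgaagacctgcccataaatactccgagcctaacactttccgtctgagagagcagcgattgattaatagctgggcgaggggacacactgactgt

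Each of the 3 Nr4a windows held 4 CRE cores, counted on both strands. Of the 32851 windows in the RefSeq table, 20.8% held at least 1 such core, and 76 windows (0.23%) held 4 or more. The Nr4a windows were rich in G and C, with 72.3% for Nr4a1, 81.7% for Nr4a2 and 64.7% for Nr4a3 against a median of 52.7% over all windows, and the motif itself holds a CG pair. The Egr2 window shown, 1 of 5 for this gene in the table, held 2 CRE cores and also 1 CArG box, the motif bound by SRF, which 1.6% of all windows held. It is window 3 in the table's order. Egr2 windows 1 and 2 held no CRE core. Windows 4 and 5 overlap the window shown and held the same 2 cores. An EGR site (GCGNGGGCG, in 5.6% of windows) was found once in the Nr4a1 window and once in the Nr4a2 window. None of the 4 windows shown held the full CRE (TGACGTCA, in 1.8% of windows, which contains the core on both strands) or the NR4A element NBRE (AAAGGTCA, in 1.5%). The NFAT core GGAAA, in 61.3% of all windows, was found once each in the Nr4a2 window and the Egr2 window shown. Egr2 window 2 held 3 of them. All motifs were searched on both strands, and a match describes letters only.

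Values were log2 expression levels from 3.81 to 15.4. The background level of an array was set at the 95th percentile of 1027 olfactory receptor genes and lay between 6.12 and 6.41 on the 6 native arrays. It stood apart on activated KO array 3, at 7.31, and was 6.72 on activated WT array 2, against 6.16 to 6.23 on the other activated arrays. The interquartile range of all values was 2.19 on activated KO array 3, the narrowest, and reached 2.89 on native KO array 1. Aire lay below background on all 12 arrays (5.62 to 5.89 in activated KO, 5.55 to 5.78 in activated WT, 5.61 to 5.73 in native KO and 5.70 to 5.92 in native WT), so its level does not check the genotype labels. On every array, 8 of 9 measured genes of the CD8 T cell marker list were above background. The other was Cd4, which is on the list but is not a CD8 marker. Cd28 was above background on all arrays, between 9.98 and 11.97, although the label calls the cells CD28low. Xist, transcribed from an inactive X chromosome, was at 4.99 (activated KO) and 5.26 (native KO) on the arrays numbered 1, against 9.34 to 11.47 on all 10 others, and no KO against WT value below is adjusted for that.

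Of the 12 differences between activated and native cells, 1 per gene and genotype, 6 passed the test, all of them lower in activated cells. Nr4a1 fell by 3.06 on the log2 scale in KO cells and fell by 2.87 in WT cells. Nr4a2 fell in both (-1.58 and -1.66) and Nr4a3 fell by 1.46 in WT cells. Egr3 fell by 0.83 in KO cells. Nr4a3 in KO cells (-1.07) and Egr3 in WT cells (-0.67) missed the threshold, and Egr1 and Egr2 did not pass in either genotype. Differences are from limma over all 19938 genes, with Benjamini-Hochberg adjustment and an adjusted p under 0.05 as the threshold for a call.

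**Figure D1:**
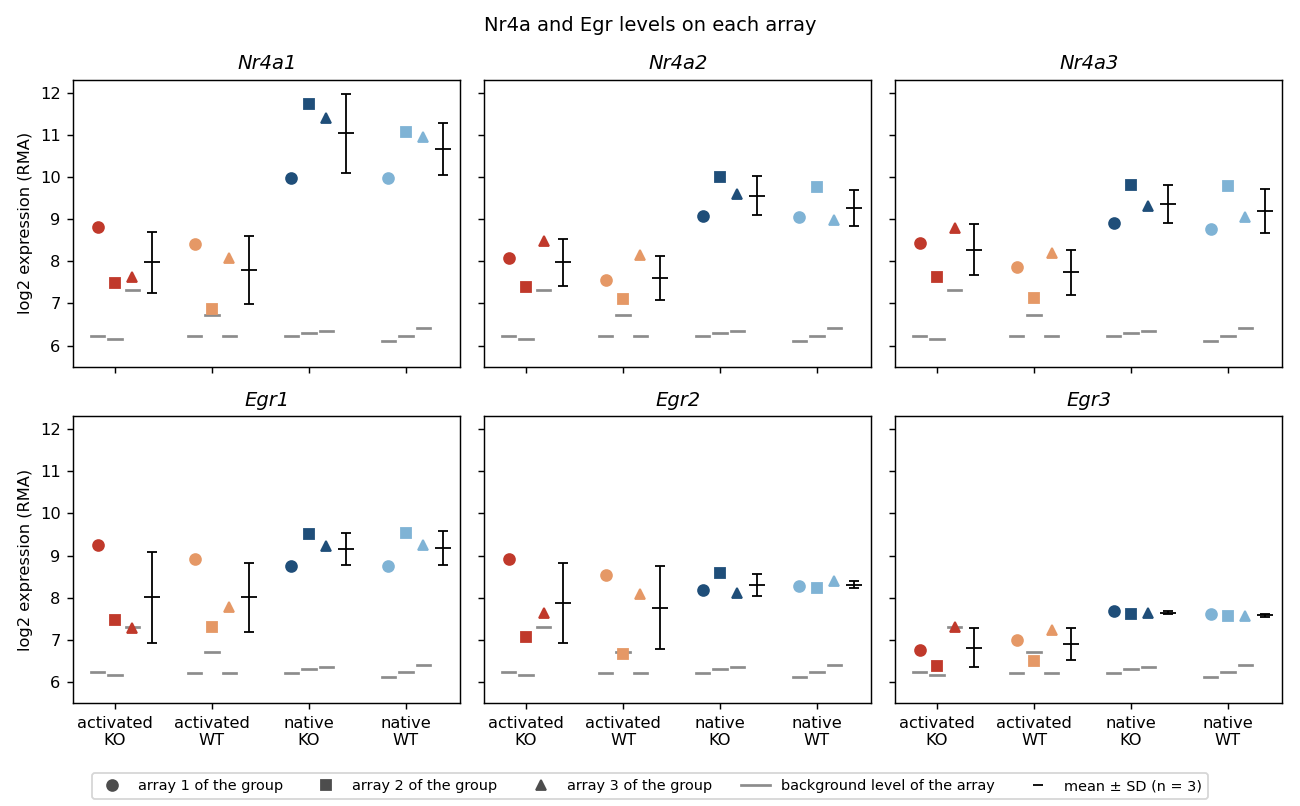
Log2 expression of each gene on each of the 12 arrays, by group, with the array's background level as a grey line and the group mean ± SD (n = 3) in black. All native arrays lie above all activated arrays for Nr4a1, Nr4a2, Nr4a3 and Egr3 within a genotype, whereas array 1 of both activated groups reaches or passes native levels for Egr1 and Egr2.

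Nr4a1, which encodes NUR77, read 8.82, 7.49 and 7.62 on the activated KO arrays, against 9.97, 11.73 and 11.39 on the native KO arrays (7.98 ± 0.73 against 11.03 ± 0.93, mean ± SD, n = 3 each). On the activated WT arrays it read 8.42, 6.87 and 8.08, against 9.97, 11.06 and 10.96 on the native WT arrays (7.79 ± 0.81 against 10.66 ± 0.61). The groups did not overlap in either genotype, and the lowest native value stood above every activated one. On activated KO array 3 and activated WT array 2 Nr4a1 lay close above the background levels of 7.31 and 6.72, which limits the fold. The difference was -3.06 ± 0.54 (SE; 8.31-fold lower) in KO cells, with a limma adjusted p of 0.001815. In WT cells it was -2.87 ± 0.54 (7.32-fold lower; adjusted p = 0.002544). RNA of a bulk sample does not tell fewer cells expressing a gene apart from less RNA per cell, here and for each gene that follows.

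Nr4a2, encoding NURR1, read 8.07, 7.38 and 8.48 in activated KO cells, against 9.09, 9.99 and 9.60 in native KO cells (7.98 ± 0.56 against 9.56 ± 0.45). The activated WT arrays gave 7.55, 7.10 and 8.16, against 9.04, 9.76 and 8.99 on the native WT arrays (7.60 ± 0.53 against 9.26 ± 0.43). Again no activated array reached a native one. Nr4a2 fell by 1.58 ± 0.35 in KO cells (limma, adjusted p = 0.006992) and fell by 1.66 ± 0.35 in WT cells (adjusted p = 0.004979).

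Nr4a3, encoding NOR1, read 8.44, 7.62 and 8.78 in activated KO cells, against 8.92, 9.81 and 9.31 in native KO cells (8.28 ± 0.60 against 9.35 ± 0.45). In WT cells the activated arrays gave 7.87, 7.14 and 8.19, against 8.77, 9.77 and 9.04 on the native arrays (7.73 ± 0.54 against 9.19 ± 0.52). The groups did not overlap, but in KO cells the highest activated and the lowest native array lay close together. In WT cells Nr4a3 fell by 1.46 ± 0.37 (limma, adjusted p = 0.01455), a call lost without activated WT array 2 (adjusted p = 0.0531) or native WT array 2 (0.0701). In KO cells the difference of -1.07 ± 0.37 missed the threshold (adjusted p = 0.06259) and passed it once activated KO array 3 was left out (0.0266), or else activated WT array 2 (0.0445). The adjusted p ranged from 0.00827 to 0.229 over 24 alternatives in KO cells and from 0.00316 to 0.0701 in WT cells.

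Egr1, the family member most tied to ERK and SRF, read 9.26, 7.47 and 7.29 in activated KO cells, against 8.74, 9.50 and 9.23 in native KO cells (8.01 ± 1.09 against 9.16 ± 0.38). The activated WT arrays read 8.91, 7.31 and 7.79, against 8.76, 9.54 and 9.25 for native WT (8.01 ± 0.82 against 9.18 ± 0.40). Array 1 of both activated groups was above the lowest native array, so the groups overlapped, and on activated KO array 3 the gene was not above background. The differences of -1.15 ± 0.51 in KO and -1.18 ± 0.51 in WT cells did not pass (limma, adjusted p = 0.1483 and 0.1367). Without activated KO array 1 both passed, at -1.78 (adjusted p = 0.0127) in KO and with an adjusted p of 0.0423 in WT cells, where the spread is shared by all groups. Over 24 alternatives the adjusted p ran from 0.0127 to 0.412 in KO and from 0.0232 to 0.37 in WT cells.

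Egr2, an NFAT-driven factor linked to T cell unresponsiveness, read 8.91, 7.07 and 7.63 in activated KO cells, against 8.19, 8.59 and 8.12 in native KO cells (7.87 ± 0.95 against 8.30 ± 0.26). In WT cells it read 8.54, 6.66 and 8.10 on the activated arrays, against 8.29, 8.23 and 8.39 on the native arrays (7.77 ± 0.99 against 8.30 ± 0.083). Array 1 of each activated group was above all native arrays of its genotype and array 2 below all of them, and activated WT array 2 was not above background. The differences were -0.43 ± 0.48 (95% interval -1.48 to 0.62) in KO and -0.54 ± 0.48 (-1.58 to 0.51) in WT cells, neither of which passed (limma, adjusted p = 0.6462 and 0.5515). Without activated WT array 2 the WT difference was 0.018.

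Egr3, a related factor with overlapping targets, read 6.77, 6.37 and 7.30 in activated KO cells, against 7.68, 7.61 and 7.64 in native KO cells (6.81 ± 0.46 against 7.64 ± 0.036). The WT arrays gave 7.002, 6.49 and 7.24 in activated cells, against 7.62, 7.56 and 7.56 in native cells (6.91 ± 0.38 against 7.58 ± 0.036). Native arrays lay close together, all of them above every activated array, and Egr3 was not above background on activated KO array 3 and activated WT array 2. Egr3 fell by 0.83 ± 0.22 in KO cells (limma, adjusted p = 0.01988). The WT difference of -0.67 ± 0.22 had an adjusted p of 0.05044. The KO call held under 17 of 24 alternatives. It was lost under quantile normalization (adjusted p = 0.118), in a fit of only the 2 groups compared (0.0526) and without any 1 of activated KO array 1 (0.0573), activated KO array 2 (0.0596), native KO array 1 (0.0639), native KO array 2 (0.0555) or native KO array 3 (0.0583). The WT difference passed under 10 of 24 alternatives, among them when activated WT array 3 (0.0348), activated KO array 2 (0.0215) or activated KO array 3 (0.00947) was left out. Over 24 alternatives the adjusted p lay between 9.25e-05 and 0.118 in KO and between 0.00203 and 0.194 in WT cells.

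Of the 6 genes, 3 were called lower and none higher in KO cells (Nr4a1, Nr4a2 and Egr3), where 11.4% of all genes were called lower and 8.72% higher. In WT cells 3 were called lower (Nr4a1, Nr4a2 and Nr4a3), where 10.9% of all genes were called lower and 9.72% higher. The shares were larger in a fit of only the 10545 genes above background on at least 3 arrays. There 2332 genes were called lower in KO cells and 2210 in WT cells. In that fit Nr4a3 in KO cells and Egr3 in WT cells passed too (limma, adjusted p = 0.0335 and 0.0329). For 4 of the 6 genes all 3 activated arrays lay below all 3 native ones, in KO and in WT cells, against 17.0% of all genes in KO and 23.4% in WT. The median of the 6 differences was -1.11 in KO and -1.32 in WT cells, beside medians over all genes of 0.022 and -0.021. Under quantile normalization the share of called genes that were higher was 55.3% in KO cells and 58.6% in WT cells, in place of 43.5% and 47.2%, while Nr4a1 and Nr4a2 were called lower under all 24 alternatives in both genotypes. With 3 arrays per group, a two-sided exact permutation test of a single gene cannot give a p below 0.1.

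**Figure D2:**
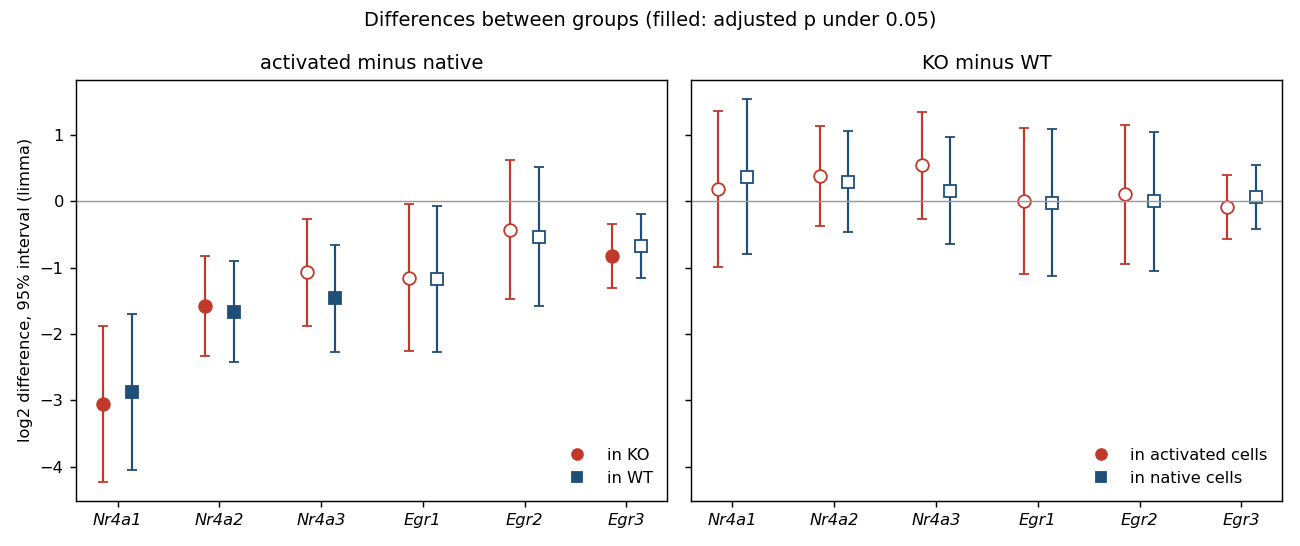
Log2 differences with 95% intervals from limma (n = 3 arrays per group): activated minus native on the left, KO minus WT on the right, with filled symbols for an adjusted p under 0.05. The activation differences of both genotypes lie side by side, from about -3.06 for Nr4a1 to -0.43 for Egr2, and every KO minus WT interval, from the fit without pairing, spans 0.

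No difference between KO and WT cells was called for any of the 6 genes, in activated or in native cells. In activated cells the largest was that of Nr4a3, at 0.54 (95% interval -0.26 to 1.35), and KO was above WT in each pair of equally numbered arrays, by 0.57, 0.48 and 0.59. Activated arrays were not taken as paired in any main test, so such differences go by number only. Nr4a2 was likewise higher in activated KO arrays of the same number, by 0.52, 0.28 and 0.33, with a fitted difference of 0.38 (-0.38 to 1.13). In Nr4a1 the pairs differed by 0.40, 0.62 and -0.46 (fitted 0.18, -0.99 to 1.36), so their sign was not shared. Egr1 differed by 0.001 (-1.10 to 1.11), Egr2 by 0.105 (-0.94 to 1.15) and Egr3 by -0.095 (-0.58 to 0.39) in activated cells. All 6 had a limma adjusted p of 0.9999.

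In native cells Nr4a1 was 0.37 higher in KO (95% interval -0.80 to 1.54), with differences of 0.008, 0.67 and 0.43 between arrays of the same number. Nr4a2 differed by 0.30 (-0.46 to 1.05) and Nr4a3 by 0.16 (-0.65 to 0.96), also with KO above WT in 3 of 3 pairs each. Egr1 was nearly equal in each native pair, with KO minus WT differences of -0.013, -0.039 and -0.016. Egr2 differed by 0.001 (-1.05 to 1.05) and Egr3 by 0.059 (-0.42 to 0.54). None passed (limma, adjusted p = 0.9999). These intervals leave the pairing of the native arrays out. With the pairs as a block in a model of the 6 native arrays, the intervals were narrower, at 0.10 to 0.63 for Nr4a1 and 0.050 to 0.54 for Nr4a2. Both lie above 0, but neither gene passed over all genes (limma, adjusted p = 0.728 and 0.834). In the same fit 1097 of 19938 genes had an unadjusted limma p under 0.05, a share close to 0.05. The paired interval was -0.029 to 0.34 for Nr4a3, -0.19 to 0.15 for Egr1, -0.26 to 0.26 for Egr2 and -0.11 to 0.23 for Egr3.

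The change on activation did not differ between genotypes by the interaction term. It was 0.39 (95% interval -0.75 to 1.53) for Nr4a3, the largest, and -0.18 (-1.84 to 1.47) for Nr4a1, with limma adjusted p-values of 0.9999. Over all genes, limma called 0.0% of 19938 in native cells, 0.0% in activated cells and 0.0% for the interaction. At an unadjusted p under 0.05 there were 131 genes in native cells, 87 in activated cells and 86 for the interaction. Leaving out 1 array moved these counts to 92 to 314 in native cells, 64 to 1157 in activated cells and 54 to 414 for the interaction. Without activated KO array 2 there were 1157 in activated cells and 402 for the interaction, without activated KO array 3 there were 653 and 414, and 314 in native cells, and without activated WT array 2 there were 559 and 273. With the shared number of the native arrays as a replicate block in a model of just the 6 native arrays, 14 genes passed. In the fit of all groups without pairing, 10 genes passed in native cells once native KO array 2 was left out. None of the 6 genes was among them, their adjusted p-values in the paired fit being 0.728 or higher.

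In the order of levels, both native groups stood above both activated groups for each of the 6 genes. Native KO was first for 5 of them and native WT for Egr1. The neighbours KO and WT overlapped in each state, so only the step between states exceeded the spread, and that for Nr4a1, Nr4a2, Nr4a3 and Egr3.

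The genes varied more between arrays of a group than most genes did. The residual SD was 0.78 for Nr4a1, 0.735 for Egr1, 0.696 for Egr2, 0.53 for Nr4a3, 0.496 for Nr4a2 and 0.302 for Egr3, beside a median of 0.246 over the 10545 genes above background on at least 3 arrays. Of those genes 99.1% had a lower residual SD than Nr4a1, 98.9% than Egr1 and 98.5% than Egr2. Nr4a3, Nr4a2 and Egr3 exceeded 95.6%, 94.2% and 69.2% of genes.

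**Figure D3:**
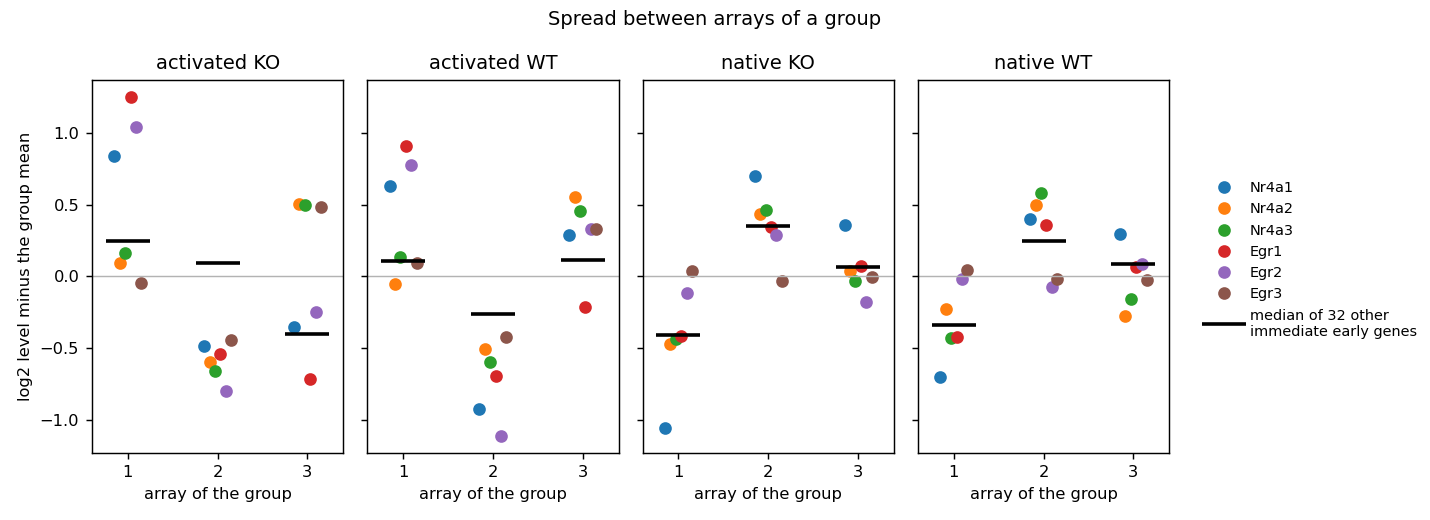
Log2 level minus the group mean for the 6 genes on arrays 1 to 3 of each group, with the median deviation of 32 other immediate early genes as a black bar. All 6 genes lie below their group mean on array 2 of both activated groups, and Nr4a1, Nr4a2, Nr4a3 and Egr1 lie below it on array 1 and above it on array 2 of both native groups.

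Part of that spread went with the number that a KO and a WT array share in their descriptions. In 6 of 6 genes in activated cells and 5 of 6 in native cells, KO and WT arrays of the same number were closer than arrays of different numbers. Egr2 in native cells was the exception, and Egr3 in native cells was only just closer (mean absolute difference 0.059 against 0.064). The same held for 55.6% of the 10545 genes above background in activated cells and for 71.2% in native cells. Across all genes, deviations from the group means correlated at 0.694, -0.017 and -0.013 in activated pairs 1 to 3. Activated arrays were therefore not taken as paired. Pair 2 holds activated WT array 2 and pair 3 holds activated KO array 3, the arrays with raised background, so these correlations cannot decide on pairing there. In activated cells array 1 was the highest of its group for Nr4a1, Egr1 and Egr2 and array 3 for Nr4a2, Nr4a3 and Egr3, in KO and in WT alike.

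Values of other gene lists moved by array as well. The median deviation of 32 other immediate early genes on arrays 1 to 3 was -0.41, 0.35 and 0.064 in native KO and -0.34, 0.25 and 0.086 in native WT, lowest on array 1 and highest on array 2 as Nr4a1 was. In activated cells it was 0.25, 0.091 and -0.40 for KO and 0.11, -0.26 and 0.12 for WT. Neutrophil markers above background on native arrays 1 to 3 numbered 10, 2 and 8 of 12 in KO and 8, 1 and 0 in WT, with summed linear levels of 4816, 849.3 and 3291 in KO and 1375, 695.2 and 525.1 in WT. On the activated arrays 0 or 1 of the 12 was above background. Myeloid and dendritic markers above background numbered 1 to 4 of 20 on activated arrays, where the summed linear level was 1372 to 3013, and 2 to 10 of 20 on native arrays (1279 to 3007). B cell markers gave 1 or 2 of 8 on activated and 1 to 3 of 8 on native arrays, and NK cell markers 4 to 6 of 8 on activated and 7 or 8 on native arrays. CD8 T cell markers had summed linear levels of 26150, 33010 and 16470 on activated KO arrays 1 to 3, the last the lowest of all 12, against 35620 to 37340 in native KO. They were 25900 to 33100 in activated WT and 35610 to 37590 in native WT. Of 9 measured genes of this list, 9 had a lower mean in activated than in native KO cells and 8 in WT cells (medians -0.53 and -0.26). The list includes Cd28 and also Cd4, which is not a CD8 marker and was below background on all 12 arrays. Cd8a and Cd247 fell in KO cells (-1.12 and -1.04), and none passed in WT cells. The KO median was -0.27 without activated KO array 3, and 2 of the 9 were called lower in each genotype. Between genotypes, 12 of 12 neutrophil markers had a mean above native WT cells in native KO cells (median 1.12), as had 8 of 8 NK cell markers (median 0.49). In activated cells 8 of 8 NK cell markers (median 0.32) and 4 of 12 neutrophil markers (median -0.032) had a higher mean in KO. None of these markers was called between genotypes in the fit without pairing. The part of these cells, of background and of array number in the levels of the 6 genes was not tested, and without activated KO array 3 the differences of Nr4a1 and Nr4a2 between activated and native KO cells remained called (adjusted p = 0.00452 and 0.00289).

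The genes whose 12 values ran most nearly parallel to each factor were found by the root mean square (RMS) difference in log2 level after each gene's own mean was subtracted, over 12 arrays that share their groups. Nr4a2 and Nr4a3 were nearest to each other among all genes, at 0.221. Trp53inp2, an autophagy regulator, came next to both, at 0.25 from Nr4a2 and 0.293 from Nr4a3, followed by Cd55, a complement inhibitor (0.299 from Nr4a2), and the kinase gene Plk2 (0.317 from Nr4a3). Nr4a1 ran closest to Dusp1 (0.402), Jun (0.478) and Dusp2 (0.478), which are 2 MAP kinase phosphatases and an AP-1 subunit, while Nr4a2 was rank 74 for it. Egr1 was nearest to the GTPase gene Rhob (0.336), the small nucleolar RNA Snord95 (0.388) and the ubiquitin ligase gene Rnf19b (0.389), and Egr2 was rank 67 for it at 0.477. Egr2 was nearest to Selenos (0.305), which acts in disposal of misfolded proteins, the ERK phosphatase gene Dusp5 (0.312) and Pno1 (0.315), a ribosome assembly factor. For Egr3 the nearest were Utp25 (0.133), Letm1 (0.133) and the chaperone gene Hspa5 (0.149).

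Genes listed as other immediate early genes went the same way more often than the opposite way. Of 32 other immediate early genes, 21 fell and 4 rose in KO cells and 19 fell and 4 rose in WT cells, with a median difference of -1.74 in KO and -1.59 in WT. Fosb, an AP-1 subunit, fell in both genotypes (-4.44 in KO and -3.96 in WT cells). Fos was at background on all activated arrays and was at least 3.05 lower on the log2 scale in both genotypes. Klf2, on the list although a factor of resting T cells, fell by 4.07 in KO cells. Tnfaip3, an inhibitor of NF-kappaB signalling, fell by 3.67 in WT cells. Their interaction terms were -0.53 and -0.12, neither of them called. Here and below, a gene named for 1 genotype only was among the 3 largest called changes there. That does not mark a difference between genotypes. Irf4, a factor graded by antigen receptor strength, rose by 2.21 in KO and 2.77 in WT cells, Ier3 rose by 1.60 and 1.89, and Nfil3 rose by 1.35 and 1.63. Without activated KO array 3 the KO counts were 20 lower and 4 higher. Over all genes, 11.4% were called lower and 8.72% higher in KO cells, and 10.9% and 9.72% in WT cells. In a fit of only the 10545 genes above background on at least 3 arrays, 2332 were lower and 1779 higher in KO cells. In WT cells 2210 were lower and 2005 higher. The list counts here and below are to be read beside these shares.

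**Figure D4:**
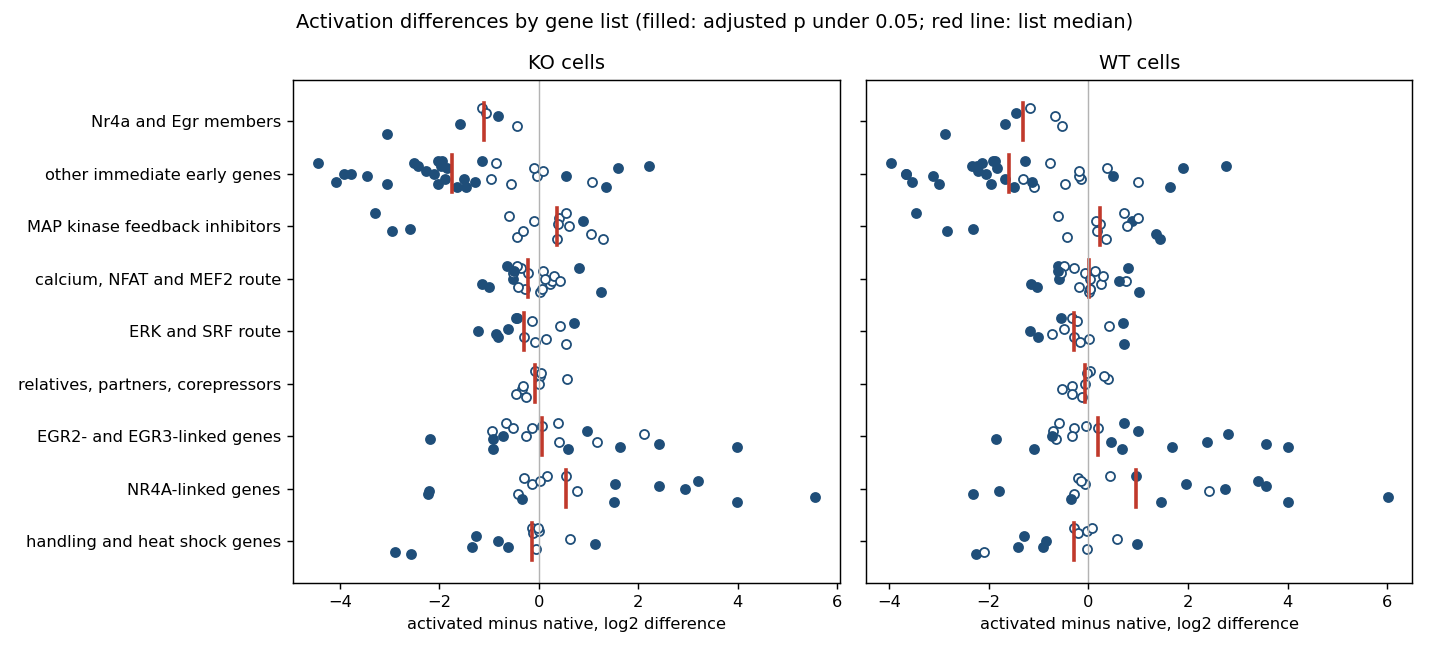
Activated minus native log2 differences of the 6 genes and of 8 gene lists in KO cells and WT cells, 1 point per gene, filled where the limma adjusted p is under 0.05, with the list median as a red line. The median of the other immediate early genes is -1.74 in KO and -1.59 in WT, and that of the NR4A-linked genes is 0.55 and 0.95.

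Among 15 feedback inhibitors of MAP kinases, 3 fell and 1 rose in KO cells and 3 fell and 3 rose in WT cells (medians 0.36 and 0.23). These counts were near or under the shares of the 10545 genes given above. The phosphatase genes Dusp1, Dusp10 and Dusp2 fell, with differences of -3.30, -2.96 and -2.59 in KO and -3.46, -2.84 and -2.31 in WT cells. Dusp14 rose by 0.89 in KO and 0.88 in WT, and Spry4 and Spred1 rose by 1.45 and 1.36 in WT. With activated KO array 3 left out, 3 genes of the list were called higher in KO cells and the KO median was 0.59.

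Upstream of the 6 genes, 21 of 22 listed genes of the calcium, NFAT and MEF2 route were measured, of which 2 rose and 5 fell in KO cells and 3 rose and 5 fell in WT cells. These counts were near or under the shares of the 10545 genes above background on at least 3 arrays. Of those, 1779 rose and 2332 fell in KO cells, and 2005 rose and 2210 fell in WT cells. Orai1, the pore of the store-operated calcium channel, fell by 1.14 in KO and in WT cells, and its sensor Stim1 fell as well (-1.01 and -1.03). Cabin1, a calcineurin inhibitor, also fell (-0.65 and -0.62). Crem, a CREB family member, rose by 1.25 in KO and 1.01 in WT cells, Rcan3, a calcineurin regulator, rose by 0.81 and 0.80, and the calcineurin subunit gene Ppp3cc rose by 0.63 in WT cells. Without activated KO array 3 the list had 6 rises and 6 falls in KO and 5 rises and 7 falls in WT cells.

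Of the ERK and SRF route, 13 of 19 genes were measured, with 1 rise and 6 falls in KO and 2 rises and 3 falls in WT cells. Mrtfa, an SRF coactivator, fell in both (-1.22 in KO and -1.17 in WT cells), as did the RAS exchange factor gene Sos1 (-0.82 and -1.01). Elk4, an SRF partner, fell by 0.86 in KO cells, and the ERK-activated kinase gene Rps6ka3 fell by 0.56 in WT cells. Map2k1, the ERK kinase gene, rose by 0.71 in KO and in WT cells, and Elk3 rose by 0.72 in WT cells. The counts without activated KO array 3 were 2 rises and 3 falls in KO and 2 rises and 6 falls in WT cells.

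None of 9 measured relatives, partners and corepressors of both families passed in either genotype, of 11 listed. The related Egr4 and Wt1 and the receptor partner Rxrg were at background in all groups. The EGR corepressor gene Nab2 differed by 0.57 in KO cells (limma, adjusted p = 0.0741) and by 0.41 in WT cells (0.216), Rxrb by -0.46 in KO (0.198) and Nab1 by -0.52 in WT (0.0684). Under quantile normalization 1 gene of this list was called higher in each genotype and 1 lower in WT, and without activated KO array 3 there were 2 lower in WT.

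Genes tied by earlier work to EGR2 and EGR3 in T cell unresponsiveness moved both ways, with 5 of 19 measured genes higher and 4 lower in KO and 9 higher and 3 lower in WT cells (medians 0.06 and 0.19). Tnfrsf9, encoding the costimulatory receptor 4-1BB, rose by 3.99 in KO and 4.02 in WT cells. Lag3, an inhibitory receptor gene at background in native cells, was at least 2.20 higher on the log2 scale in KO and at least 3.21 higher in WT cells. Fasl rose by 1.64 in KO cells and Ndrg1 by 2.80 in WT cells. Socs3, a cytokine signalling inhibitor, fell in both (-2.20 in KO and -1.84 in WT cells), as did Crtam (-0.93 and -1.09). Dgka, which removes diacylglycerol, fell by 0.91 in KO cells, and Ikzf1 fell by 0.72 in WT cells. Interaction terms were -1.15 for Lag3, -0.031 for Fasl, -0.69 for Ndrg1, -0.26 for Dgka and 0.010 for Ikzf1, none of them called. Without activated KO array 3 the KO counts were 7 and 5 with a median of 0.20, beside 0.19 in WT cells, and the WT counts 9 and 6.

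Of 17 measured genes tied to NR4A factors in T cells, 7 rose and 3 fell in KO and 8 rose and 3 fell in WT cells (medians 0.55 and 0.95). Il2ra, the high-affinity interleukin 2 receptor chain, rose by 5.56 in KO and 6.01 in WT cells, and Entpd1, which encodes the ectonucleotidase CD39, rose by 3.20 in KO cells. Runx1 fell in both (-2.24 in KO and -2.31 in WT cells), as did Tox, a regulator of exhausted CD8 T cells (-2.21 and -1.79). Foxp3, the regulatory T cell factor, was called lower (-0.35 in KO and -0.34 in WT cells) but was at background on all activated arrays and close to it on native ones, so no bound of its change is given. The list shares Tnfrsf9 and Lag3 with the one before.

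Handling and heat shock genes were described because native cells were freshly isolated. Of 13 measured genes of 16, 6 fell and 1 rose in KO cells and 5 fell and 1 rose in WT cells (medians -0.14 and -0.29). In KO cells 5 fell without activated KO array 3, with a median of -0.26, and after median centring 4 fell with a median of -0.076. The chaperone genes Dnajb4 and Hsph1 fell, with differences of -2.57 and -1.34 in KO and -2.26 and -1.42 in WT cells, Dnajb1 fell by 1.29 in WT, and Hspa1a was at least 2.36 lower on the log2 scale in KO cells. Hmox1, the heme-degrading stress enzyme gene, was at background in native cells and at least 0.44 higher in KO and 0.24 higher in WT cells. The part of cell handling in the native levels of the 6 genes was not tested. The paired fit of the 6 native arrays, where 14 genes passed, was not described by list. In the fit without pairing none of the listed genes was called between KO and WT cells, for which 0.0% of all genes passed. The smallest unadjusted limma p among them was that of the neutrophil gene Retnlg, which in native cells was 2.10 higher in KO (5.1e-06, adjusted p = 0.102) and had an interaction term of -2.15 (0.000104, adjusted p = 1.0).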

How the data were processed

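The authors deposited log2 expression values, 35556 rows on 12 arrays. The submitters' processing notes name RMA and Partek, without versions. RNA was taken up in Trizol, cleaned on RNeasy columns and converted to biotin-labelled sense DNA, per the labels' protocols. RMA compresses differences near background. Rows with 1 platform symbol (21789, against 1621 with several and 12146 with none) were updated through Entrez identifiers (21698 matched) and the brightest row was kept for 999 genes with several.

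Group means were fitted over 12 arrays with limma 3.58.1 in R 4.3.3 (lmFit, eBayes), with Benjamini-Hochberg adjustment over 19938 genes and tests two-sided. The fit was tested on simulated data. No dim filter was used. Background for a group meant all 3 arrays at or under the olfactory percentile, and bounds ("at least") were taken from that level. Arrays have no read depth, and their number limits precision. Named were the 6 genes, up to 3 called rises and falls per list (or, where none passed, the 2 smallest p-values) and the 3 nearest genes by RMS difference; Cd28, Cd4, Aire, Xist and the relatives at background were added after their values were seen. Members and lists were chosen with earlier results of these data known. Numbers shared by KO and WT arrays in the descriptions were checked by the correlation across genes of deviations from group means: 0.58, 0.396 and 0.157 for native pairs, taken as paired, and 0.694, -0.017 and -0.013 for activated pairs, not taken as paired. Alternatives were fits of only the 2 groups compared, quantile normalization, median centring, blocks, array weights, other rows, a dim filter and leaving out arrays.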

Additional observations from a re-analysis of the deposited data

How the results depend on the processing

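Nr4a1 and Nr4a2 stayed called lower under all alternatives in both genotypes. Array weights by restricted maximum likelihood stopped before converging, with a weight of 4.87e-06 for activated KO array 1; this setting gave 6 of the 6 genes called lower in KO and 5 in WT cells, and 7609 genes called in WT. Weights fitted gene by gene (added after seeing the data) gave 6932 genes called in KO and 6930 in WT cells, and a fit of all rows gave 7526 and 7687, in place of 4002 and 4107. Between genotypes in native cells, where 0 genes were called, there were 1 with trend and robust, 3 with array weights, 2 with gene by gene weights, 2 over all rows, 1 after the dim filter, 0 to 10 leaving out single arrays, 14 with a replicate block on the 6 native arrays and 19 with the replicate block and both arrays of number 6 left out. That last setting gave 25 genes between genotypes in activated cells and 6 for the interaction, none of them 1 of the 6 factors. The replicate block by title number changed the call of Egr3 in WT cells (-0.67, adjusted p = 0.0229) and no other call of the 6 genes.

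Signs turned as follows, no turned value passing. For activation, Egr2 was 0.052 in KO cells with gene by gene weights and ran from -0.92 to 0.018 in WT cells leaving out single arrays. In native cells Egr1 was 0.089 with array weights and 0.080 gene by gene, and Egr2 was -0.024 after median centring. Leaving out arrays there gave -0.078 to 0.45 for Nr4a3, -0.23 to 0.19 for Egr1 and -0.15 to 0.090 for Egr2. In activated cells array weights gave -0.60 for Nr4a1, -0.28 for Nr4a2, -0.21 for Nr4a3, -0.79 for Egr1 and -1.02 for Egr2, and median centring -0.030 for Egr1. Leaving out arrays gave -0.28 to 0.50 for Nr4a1, -0.63 to 0.46 for Egr1, -0.45 to 0.51 for Egr2 and -0.34 to 0.13 for Egr3. For the interaction, array weights gave -0.68 for Nr4a2, -0.47 for Nr4a3, -0.88 for Egr1 and -1.11 for Egr2, gene by gene weights -0.26 for Nr4a2, and leaving out number 6, with and without the replicate block, 0.14 for Nr4a1. Leaving out arrays gave -0.71 to 0.17 for Nr4a1, -0.17 to 0.38 for Nr4a2, -0.60 to 0.48 for Egr1, -0.45 to 0.50 for Egr2 and -0.40 to 0.066 for Egr3. The causes were not tested. Each group has 3 arrays, and 2 activated arrays had raised background, which limits differences of Egr1, Egr2, Egr3 and Nr4a1 there. Nr4a1 read 7.62 against a background of 7.31 on activated KO array 3, and 6.87 against 6.72 on activated WT array 2. On activated WT array 2 Nr4a2 (7.10) and Nr4a3 (7.14) were near background as well. The description number cannot be a fixed block for activation, since each number holds 1 state.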
